A study of Mus musculus with 144 samples.

Results

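The neutrophil-like wells were 9 single-cell wells of mouse retina that carried high levels of S100a8 (ENSMUSG00000056054) and S100a9 (ENSMUSG00000056071), the genes of the calcium-binding proteins that make up calprotectin. They were chosen by measured values. Among the 88 wells with at least 50000 recovered reads, those with S100a8 and S100a9 both at 1000 RPM or more (reads of a gene scaled to the same total of reads in every well) were called neutrophil-like, and those with both below 100 RPM were called microglia wells. This gave 9 neutrophil-like wells and 76 microglia wells, with 3 wells between the thresholds, out of 144 wells in all.

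The series measured messenger RNA in single cells sorted from retina after optic nerve crush, and every well was labelled microglia. The wells compared came from Iba1-EGFP mice on a C57BL/6 background, 20-22 months old, in which a green fluorescent reporter marks cells that use the Iba1 (Aif1) gene. By title, 6 neutrophil-like and 19 microglia wells came from day 2 after nerve crush, 2 and 21 from day 4, and 1 and 36 from uncrushed retina with no treatment. The 18 wells of plate 1 titled day 4 carry a treatment tag of day 2 and were kept at day 4, among them both neutrophil-like wells of day 4. No animal is named and each well was sorted as 1 cell, so the values below are descriptions without a test, and the wells are not replicates of a condition.

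Neutrophils are short-lived granulocytes made in the bone marrow, which enter tissue from the blood and kill microbes with granule proteins and oxidants. Their granule proteins are made in order: the primary granule enzymes in promyelocytes, the secondary granule proteins in myelocytes and metamyelocytes, and the tertiary and secretory proteins in band and segmented cells, so the transcripts present reflect the stage of the cell. Microglia are the resident macrophages of the retina, and are known by complement C1q, the fractalkine receptor Cx3cr1 and the growth factor receptor Csf1r.

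The promoters of 4 genes are shown because these genes carry the contrast: S100a8 and S100a9 chose the wells, and Il1b and C1qb had large differences in opposite directions. Each is the 250 bases before the RefSeq start site on GRCm38.p6, printed 5′ to 3′ on the strand of the gene. The windows are chr3:90668821-90669070 on the plus strand for S100a8, chr3:90695722-90695971 on the minus strand for S100a9, chr2:129371140-129371389 on the minus strand for Il1b and chr4:136886201-136886450 on the minus strand for C1qb. The deposited gene model of S100a8 starts at base 90668978, inside its window. Capitals mark matches, on either strand, to 5 patterns of letters: TTNNGNAA and TGNNGNAA for C/EBP factors, GAGGAA for PU.1, TATAAA for a TATA box, and GGGA, any 2 bases, TTCC for NF-kB.
S100a8: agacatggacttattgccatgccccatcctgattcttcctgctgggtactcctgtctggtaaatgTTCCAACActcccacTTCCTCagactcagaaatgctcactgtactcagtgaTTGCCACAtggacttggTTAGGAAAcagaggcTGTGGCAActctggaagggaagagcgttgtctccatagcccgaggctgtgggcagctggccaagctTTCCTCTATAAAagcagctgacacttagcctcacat
S100a9: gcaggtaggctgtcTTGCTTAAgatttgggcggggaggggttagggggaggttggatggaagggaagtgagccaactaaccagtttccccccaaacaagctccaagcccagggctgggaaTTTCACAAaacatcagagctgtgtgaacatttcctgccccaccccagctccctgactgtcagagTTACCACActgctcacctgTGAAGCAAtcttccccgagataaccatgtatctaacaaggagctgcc
Il1b: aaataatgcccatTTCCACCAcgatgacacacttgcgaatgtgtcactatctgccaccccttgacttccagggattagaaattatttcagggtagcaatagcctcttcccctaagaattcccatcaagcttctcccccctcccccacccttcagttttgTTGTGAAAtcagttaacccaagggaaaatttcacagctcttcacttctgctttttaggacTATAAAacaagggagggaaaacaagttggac
C1qb: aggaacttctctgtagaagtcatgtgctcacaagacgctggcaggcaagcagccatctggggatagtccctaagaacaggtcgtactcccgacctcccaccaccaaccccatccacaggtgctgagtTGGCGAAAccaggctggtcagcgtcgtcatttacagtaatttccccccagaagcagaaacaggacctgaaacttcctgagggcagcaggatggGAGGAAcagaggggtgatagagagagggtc
S100a8 held TTAGGAAA 117 bases before its start and TATAAA 30 bases before it, with matches to GAGGAA at 170 and 36 bases. Il1b held TTGTGAAA at 91 bases and TATAAA at 31 bases, whereas neither S100a9 nor C1qb matched TATAAA. None of the 4 matched the NF-kB letters, and the matches shown do not overlap one another. These patterns are short: TTNNGNAA was in 36.9% of 27025 RefSeq windows of the same length, TGNNGNAA in 41.1%, GAGGAA in 23.1%, TATAAA in 12.97% and the NF-kB letters in 1.17%. A match describes the letters of the window and not a bound site.

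S100a8 and S100a9 set the groups, and their values are given as a description. Wells are named by plate position and listed in 1 order throughout: C5 of plate 1 from uncrushed retina, then D2, E1 and E6 of plate 1, D3 and E4 of plate 2 and D2 of plate 3 from day 2, then G2 and G5 of plate 1 from day 4. S100a8 was at 43557 RPM in uncrushed well C5, at 13974, 9119, 20944, 39948, 21190 and 13815 RPM in the 6 wells of day 2, and at 36575 and 2414 RPM in the wells of day 4. In microglia wells it ran from 0 to 94.9 RPM with a median of 1.14 RPM. S100a9 ran from 4800 to 45654 RPM (median 17799) in neutrophil-like wells and from 0 to 84.4 RPM (median 0.907) in microglia wells. The well nearest the upper threshold was G5 of day 4, with 2414 RPM of S100a8 and 4800 RPM of S100a9. The 3 wells between the thresholds had 205, 150 and 125 RPM of S100a8 and 212, 116 and 115 RPM of S100a9.

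**Figure D1:**
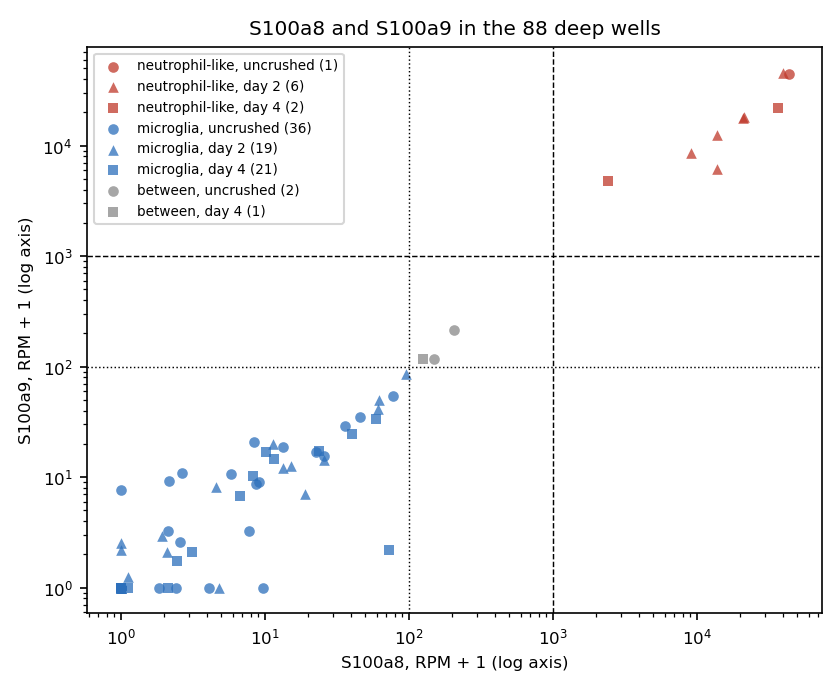
S100a8 (x axis) and S100a9 (y axis) in RPM + 1, both on log axes, in the 88 wells with 50000 reads or more; red marks neutrophil-like wells, blue microglia wells and grey the 3 wells between, with the shape giving the day and the lines the thresholds at 1000 and 100 RPM. The 9 neutrophil-like wells lie at 2414 RPM of S100a8 or more, apart from all other wells.

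Neutrophil-like wells made up 9 of 88 deep wells, or 10.2% (exact Clopper-Pearson 95% interval 4.78 to 18.5, for counting error only). At day 2 they were 6 of 25 wells (24%, 9.36 to 45.1), at day 4 they were 2 of 24 (8.33%, 1.03 to 27), and in uncrushed retina 1 of 39 (2.56%, 0.0649 to 13.5). The 3 intervals overlap. Plate 1 held 6 of the 9 wells among 34, plate 2 held 2 among 31 and plate 3 held 1 among 23. If the treatment tag of the plate 1 wells were right, 8 of the 9 wells would be from day 2. Among the 56 wells with fewer reads, 19 also passed 1000 RPM for S100a8 and S100a9, but only 9 of them held 10 or more reads of each gene. All 56 also carried microglia markers, with a summed level of 6664 to 44309 RPM (median 28499).

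Median depth was close in the 2 sets, and microglia wells had the wider range. Recovered reads ran from 320698 to 1352150 (median 614345) in neutrophil-like wells and from 82047 to 8065040 (median 657700) in microglia wells. Neutrophil-like wells held reads of 2433 to 5206 genes (median 3279), against 1266 to 10849 genes (median 3735.5) in microglia wells. With every well thinned to 50000 reads, the medians were 1309 genes in neutrophil-like wells and 1630.5 genes in microglia wells. The reads carry no molecular identifiers, so read counts do not count molecules.

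All 9 wells were labelled microglia, but neutrophil markers were present in each. In 7 of them no microglia marker reached 100 RPM, whereas E1 of day 2 held markers of both cell types. Of 18 neutrophil markers, each neutrophil-like well held 9 to 13 at 10 reads or more, against 0 to 4 (median 0) in microglia wells; S100a8 and S100a9 are among the 18. Of 14 microglia markers, 7 neutrophil-like wells held 0 at 100 RPM, well E4 of day 2 held 1 and well E1 of day 2 held 8, against 1 to 14 (median 9) in microglia wells. By the count of 10 reads, neutrophil-like wells held 0 to 9 of the 14 (median 1). E1 held 9 by this count, C5 and D2 of plate 3 held 6 each and G5 held 3. Microglia wells held 1 to 14 (median 10), and 59 of the 76 held 7 or more. Their name follows the rule and the label, and the markers of some went against it. F1 of plate 1 at day 4 summed to 60966 RPM of monocyte markers beside 4280 RPM of microglia markers. A6 of plate 2 from uncrushed retina had 2495 RPM of monocyte markers beside 1718 RPM of microglia markers. The summed level of the 14 microglia markers was 28.2 to 13275 RPM (median 99.5) in neutrophil-like wells and 451 to 80493 RPM (median 38876) in microglia wells. Aif1, the gene behind the Iba1 reporter, was at 0 to 7.33 RPM in 7 neutrophil-like wells, at 314 RPM in E1 and at 503 RPM in E4. In microglia wells it was at 0 to 6450 RPM (median 1026). Some microglia wells were as low, such as A3 of plate 1 from uncrushed retina at 6.17 RPM, so low Aif1 was not particular to neutrophil-like wells.

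Transcripts of rod photoreceptors were high in 2 of the 9 wells. Wells E1 of day 2 and G5 of day 4 each held 11 of 12 rod markers at 10 reads or more, with a summed level of 65595 and 91714 RPM, and the other 7 neutrophil-like wells held 0 or 1 marker and a summed level of at most 96.2 RPM. Gnat1, the transducin subunit of rods, was at 21241 RPM in E1 and at 32708 RPM in G5. In microglia wells the summed rod level ran from 0 to 5722 RPM (median 1.55), and 3 of them held 3 or more rod markers. Markers of T cells, NK cells, red blood cells, platelets and endothelium were at 0 in all 9 neutrophil-like wells. Of 10 monocyte markers only Ly6c2 reached 10 reads, at 53.8 RPM in E4, and Ccr2, a defining monocyte receptor, was at 1.05 RPM or less. Siglecf, a gene of eosinophils and also of some neutrophils in inflamed tissue, was at 503 RPM in E1. Whether E1 and G5 each held more than 1 cell or free transcripts was not tested. The results below include them, and the counts without both wells are given beside the main counts.

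For each gene, the difference of mean log2(RPM + 10) was taken as neutrophil-like minus microglia wells. A difference of 2 corresponds to 4-fold for well-expressed genes, and the added 10 RPM understates it for low ones. Among 8664 genes with 10 or more reads in at least 5% of the wells of both sets together, 283 were higher by 2 or more in neutrophil-like wells (3.27%) and 259 were lower by 2 or more (2.99%). Without E1 and G5 the counts were 293 and 375. With 1 RPM added in place of 10 they were 565 and 898, with 100 RPM 94 and 42, and without plate 1 there were 439 higher genes. The median over all genes that passed the filter was -0.29. It moved with the processing, to -0.020 with no filter and 0 by the difference of medians. It was -0.70 with a filter of 20% of wells and -0.56 with wells thinned to 50000 reads. List counts and medians below are to be read beside the shares of 3.27% and 2.99% and the median of -0.29, which holds for this filter. In any list, a gene that passes the filter through neutrophil-like wells alone has to differ. Every neutrophil-like well was above every microglia well for 8 genes (0.0923%) and below every microglia well for 0 genes. Among these were S100a8 and S100a9, which chose the wells, and Mmp9, Hdc, Slpi, Lilr4b and Mir7678. The last is a microRNA gene that lies within the span of Slpi on the same strand, so its value is uncertain, and it was named after its values were seen.

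**Figure D2:**
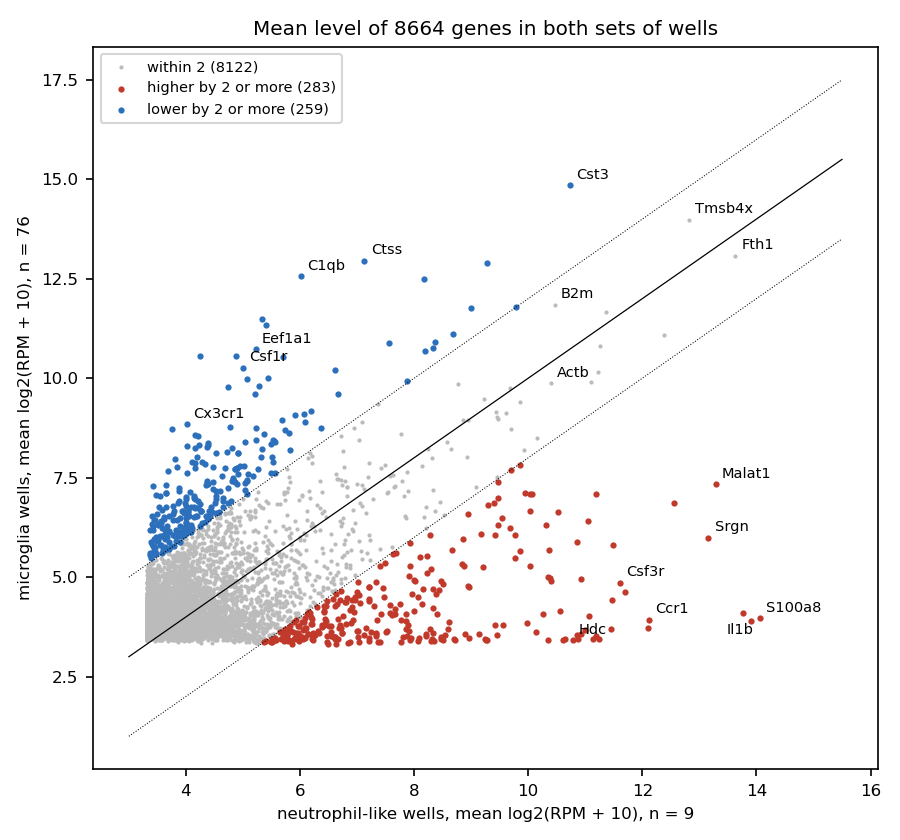
Mean log2(RPM + 10) of 8664 genes over the 9 neutrophil-like wells (x axis) and the 76 microglia wells (y axis); the solid line marks equality, dotted lines a difference of 2, red the 283 genes higher and blue the 259 genes lower in neutrophil-like wells. S100a8 and Il1b lie at the far right and C1qb and Ctss at the upper left; the labels on single genes were chosen after their values were seen.

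The differences of largest size in the upward direction were of secreted alarmins, a cytokine and surface receptors. S100a8 and S100a9 were higher by 10.08 and 10.003, as the rule required. Il1b, the gene of the cytokine interleukin-1 beta, averaged 13.76 ± 1.12 on the log2 scale in neutrophil-like wells and 4.10 ± 1.59 in microglia wells (SD, n = 9 and 76), a difference of 9.66. Its level was 21463 RPM in C5, 20028, 13098, 30371, 10558, 2241 and 24551 RPM in the wells of day 2 and 18451 and 10362 RPM in those of day 4, against 0 to 3544 RPM (median 0.699) in microglia wells. Only E4 lay inside the microglia range, and 13 of the 76 microglia wells held 10 or more reads. Ccr1, a receptor for CC chemokines, was at 1228 to 10187 RPM (median 5702) in neutrophil-like wells and at 0 to 4590 RPM (median 0) in microglia wells, a difference of 8.18. The inhibitory leukocyte receptors Lilr4b and Lilrb4a were higher by 8.38 and 7.75, and because these paralogs are near-identical their reads may be split between them.

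Further genes in this group have known roles in neutrophils. Hdc, the enzyme that makes histamine, was at 82.9 to 16799 RPM (median 2361) in neutrophil-like wells and at most 31.6 RPM in microglia wells, a difference of 7.36 with no overlap. Ifitm1, a membrane protein that restricts viruses, was higher by 7.66, with 8 of 9 neutrophil-like wells and 6 of 76 microglia wells at 10 reads or more. Its highest well, D3 of day 2, had 153477 RPM, whereas C5 of uncrushed retina had 0.740 RPM and G5 of day 4 had 32.96 RPM. Mxd1, a repressor of the Myc network, was higher by 7.42, and Lrg1, a secreted glycoprotein of granulocytes, by 7.20, each with 8 of 9 neutrophil-like wells at 10 reads. S100a11 was higher by 7.30 and lay at 367 RPM or more in all 9 neutrophil-like wells.

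Most primary granule genes had 0 reads in the neutrophil-like wells, and secondary granule genes were present in part. Mmp9 and Slpi, from the list of the tertiary and secretory compartment, were present in all 9. Of the 8 primary granule genes, Mpo, Elane, Prtn3, Ctsg, Prss57, Ms4a3 and Bpi had 0 reads in all 9 neutrophil-like wells, and the remaining Ctsc, an activator of granule proteases that microglia also use, was at most 4.21 RPM there, against a median of 53.2 RPM in microglia wells (-3.49). Of the 7 genes without reads, 6 also had 0 reads in all 76 microglia wells. Of the 9 secondary granule genes, Ltf, Camp and Ngp, which encode lactoferrin, cathelicidin and neutrophilic granule protein, also had 0 reads in all 9 neutrophil-like wells, as they had in all 76 microglia wells. The exact interval for 0 of 9 wells reaches 33.6%, and it limits wells with 10 reads, not wells that use the gene. Hp, the gene of haptoglobin, was at 868 to 7184 RPM in 8 neutrophil-like wells and at 4.21 RPM in E6 of day 2, against a median of 0 in microglia wells, a difference of 7.37. Lcn2, the gene of lipocalin 2, was at 3632, 1219, 3343 and 1270 RPM in 4 neutrophil-like wells and at 2.69 RPM or less in the other 5, against at most 7.66 RPM in microglia wells. Of the 9 genes 4 passed the filter, 1 was higher by 2 or more and the median was 0.20, and -0.27 without E1 and G5.

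Mmp9, the gelatinase of tertiary granules, was at 6329 RPM in C5, 2424, 813, 2855, 683, 7302 and 7052 RPM in the wells of day 2, and 1296 and 1640 RPM in those of day 4. In microglia wells it reached at most 16.4 RPM, and the difference was 7.78 with no overlap. Slpi, an inhibitor of neutrophil elastase, was at 357 to 15981 RPM (median 1083) in neutrophil-like wells and at most 15.3 RPM in microglia wells, a difference of 7.18. Adam8, a membrane protease, and Mcemp1, a membrane protein of myeloid cells, were higher by 4.51 and 3.99, each with 6 of 9 neutrophil-like wells and 1 of 76 microglia wells at 10 reads. In this list of 10 genes 6 passed the filter on low counts and 5 were higher by 2 or more, but a gene that passes through the neutrophil-like wells alone has to differ, so the count is a description.

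Of the 18 neutrophil markers 11 passed the filter and all 11 were higher by 2 or more, which the choice of wells and the filter fix in part, and several were uneven among the 9 wells. Retnlg, a resistin-like secreted protein, was at 5015 RPM in C5, at 118, 178, 0, 1091, 0 and 18200 RPM in the wells of day 2, and at 0 and 1379 RPM in those of day 4, against at most 134 RPM in microglia wells. It thus had 0 reads in 3 of the 9 neutrophil-like wells, and its difference was 4.48. Ly6g, the surface antigen used to sort mouse neutrophils, reached 10 reads in 2 wells only, at 53.01 RPM in D3 of day 2 and 4796 RPM in G2 of day 4. Mmp8, the neutrophil collagenase, reached 10 reads in C5 at 2642 RPM and in D2 of plate 1 at 135 RPM. Cd177 was at 155 RPM in C5 and at 0 in the other 8 wells.

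**Figure D3:**
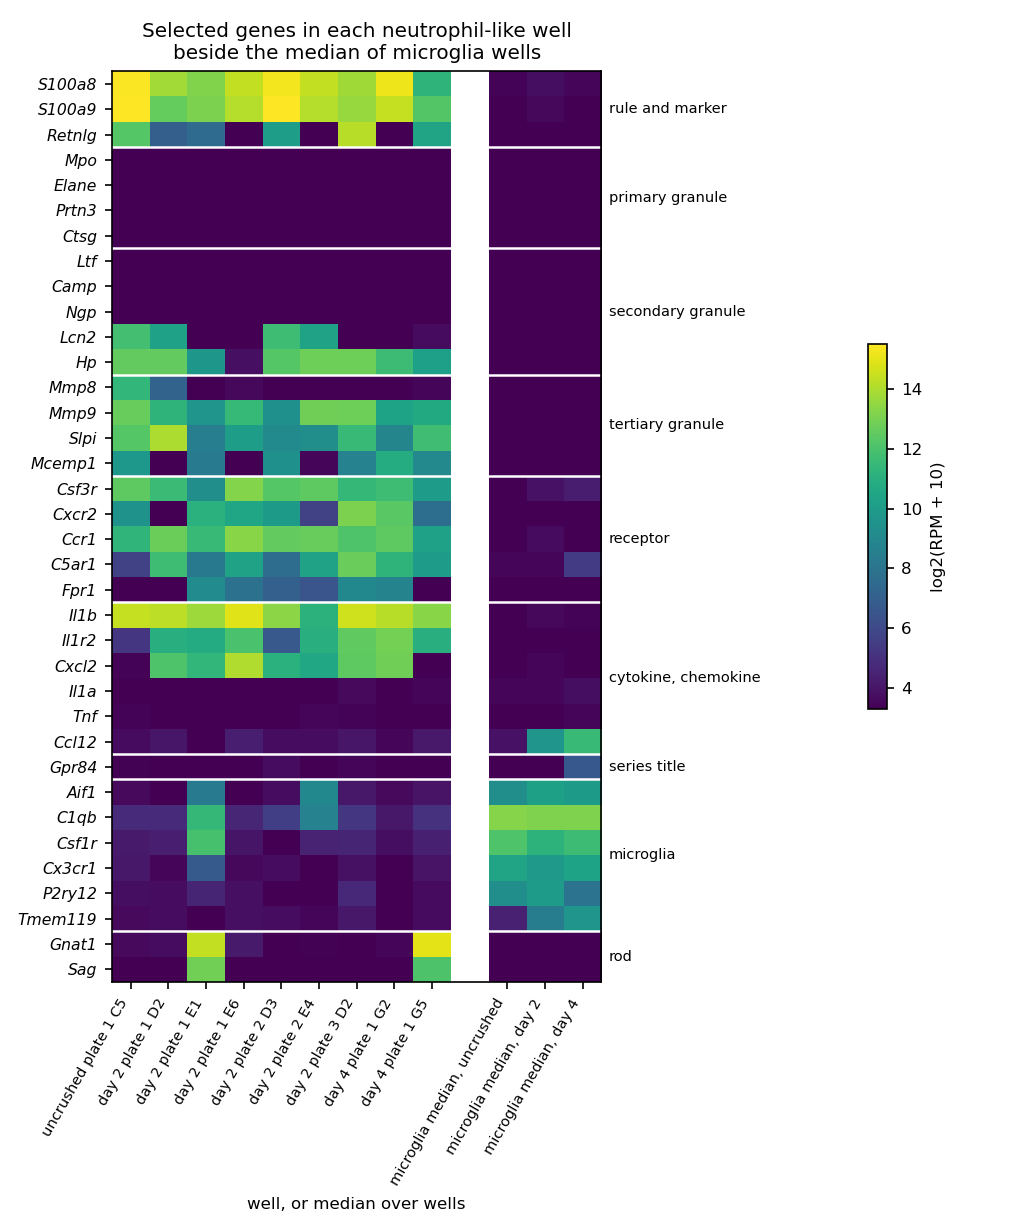
Level as log2(RPM + 10), by colour, of selected genes (rows, grouped by role) in each of the 9 neutrophil-like wells and, after the gap, as the median of the microglia wells of uncrushed retina, day 2 and day 4 (columns). Primary granule genes are dark in every column, Mmp9, Slpi, Ccr1 and Il1b are bright in all 9 neutrophil-like wells, and E1 and G5 alone are bright for Gnat1 and Sag; the genes were chosen with results of these data known.

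Of 14 receptors for chemoattractants and growth factors 11 passed the filter, 7 were higher by 2 or more and 2 were lower. Cxcr2, Fpr1 and Ltb4r1 passed through neutrophil-like wells alone and so had to differ, and the median of 3.49 is the value of Ltb4r1 itself, so the count and the median are descriptions. Csf3r, the receptor for G-CSF, was at 636 to 9469 RPM (median 3340) in neutrophil-like wells and at 0 to 2152 RPM (median 0.668) in microglia wells, a difference of 6.74. Cxcr2, the receptor for CXC chemokines that draws neutrophils out of the blood, was higher by 5.84 and had 10 reads in 8 of 9 neutrophil-like wells and 0 of 76 microglia wells. C5ar1, the receptor for complement C5a, was higher by 4.27, Csf2rb, a subunit of the GM-CSF receptor, by 3.61, Ltb4r1, a leukotriene B4 receptor, by 3.49 and Fpr1, a formyl peptide receptor, by 3.16. Fpr1 and Ltb4r1 reached 10 reads in 6 and 5 of 9 neutrophil-like wells and in 0 microglia wells. The 2 receptors that were lower, Csf1r (-5.26) and Cx3cr1 (-4.83), are those of macrophages.

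Of 10 cytokine genes 7 passed, 2 were higher and 1 lower by 2 or more, and the median was 0.83, and -0.087 without E1 and G5. Il1r2, the decoy receptor for interleukin-1, was higher by 6.93, with all 9 neutrophil-like wells and 0 of 76 microglia wells at 10 reads, and its lowest value was 28.1 RPM in C5. It passed the filter through neutrophil-like wells alone and so had to differ. Il1rn, the receptor antagonist, was at 3987 RPM in G2, 977 RPM in E1 and 40.7 RPM in E4 and at most 1.48 RPM in the other 6 neutrophil-like wells, a difference of 1.84. Il1a, the gene of interleukin-1 alpha, which the series title names, reached 10 reads in 0 of 9 neutrophil-like wells (exact interval 0 to 33.6%) and in 25 of 76 microglia wells (32.9%, 22.5 to 44.6), a difference of -2.19. Tnf, also named there, reached 10 reads in 0 of 9 neutrophil-like wells and 13 of 76 microglia wells (17.1%, 9.43 to 27.5), a difference of -0.96. Both intervals for Il1a and both for Tnf overlap.

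Of 13 chemokine genes 12 passed, 3 were higher and 1 lower by 2 or more, and the median was -0.49, being 0.53 at day 2 and -0.89 on the other days. Cxcl2 and Cxcl3, ligands of Cxcr2, were higher by 6.52 and 3.74. Cxcl2 was at 4453, 2638, 16555, 2145, 1559 and 5657 RPM in wells of day 2 and 7450 RPM in G2, but at 0.740 RPM in C5 and 0 in G5, against 2 of 76 microglia wells with 10 reads. Ccl6, a CC chemokine of myeloid cells, was at 1.71 to 6504 RPM (median 1369) in neutrophil-like wells and at 0 to 10517 RPM (median 274) in microglia wells, a difference of 2.47. Ccl12, a monocyte attractant, was at most 10.5 RPM in neutrophil-like wells, with 0 of 9 wells at 10 reads, against 42 of 76 microglia wells (55.3%, 43.4 to 66.7) and a difference of -3.92. Ccl2 and Ccl7 were at 0 in all 9 neutrophil-like wells, against 14 and 5 of 76 microglia wells at 10 reads.

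Of 14 pattern recognition genes 13 passed the filter and 6 were higher by 2 or more, beside 3.27% of all genes. Their median was 1.94, beside -0.29 over all genes. Pirb, an inhibitory receptor, was at 131 to 3122 RPM (median 1461) in neutrophil-like wells, against 7 of 76 microglia wells at 10 reads, a difference of 6.14. The C-type lectins Clec4d and Clec4e were higher by 5.85 and 5.48, and Trem1, an amplifying receptor of neutrophils and monocytes, by 5.29. Of 12 adhesion genes 9 passed, 2 were higher and 1 lower by 2 or more, and the median difference was -0.004. Cd44, the hyaluronan receptor, was higher by 4.90, Itgb5 differed by -2.01, and the integrin genes Itgam and Itgb2 differed by -0.04 and 0.94.

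Of 14 genes of NF-kB feedback and the immediate early response all passed, 10 were higher by 2 or more and 1 was lower, with a median of 3.59. Dusp1, a phosphatase that shuts down MAP kinases, was higher by 5.67, Btg2 by 4.97, Nfkbia, the inhibitor of NF-kB, by 4.68 and Zfp36, which destabilises cytokine transcripts, by 4.63. Zfp36 was at 1038 to 7025 RPM (median 2002) in neutrophil-like wells and at 0 to 11325 RPM (median 5.90) in microglia wells, so the ranges overlap although all 9 wells were high. Jun differed by -2.34, with at most 10.8 RPM in neutrophil-like wells and 25 of 76 microglia wells at 10 reads. Of 9 granulocyte transcription factor genes 7 passed and 6 were higher by 2 or more (median 3.11), among them Fosl2 (5.24), Klf2 (3.58), Junb (3.37) and Spi1, the gene of PU.1 (3.11). Cebpe and Gfi1, factors of early granulocyte stages, were at 0 in all 9 neutrophil-like wells and also in all 76 microglia wells.

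Of 22 interferon-related genes 20 passed, 5 were higher and 2 lower by 2 or more, and the median of -0.18 was close to that of all genes. The 5 were Ifitm1 (7.66), Ifitm2 (6.42), Slfn4 (4.98), Slfn1 (4.92) and Slfn2 (3.57). Ifitm2 was at 125 to 9365 RPM in all 9 neutrophil-like wells. Ifi27l2a and Bst2, induced by interferon in many cells, differed by -3.24 and -2.25, with at most 3.26 and 2.10 RPM in neutrophil-like wells. Of 12 genes that an earlier description of these wells gave as highest at day 2, 5 were higher by 2 or more in neutrophil-like wells: Ccr1, Ifitm1, S100a11, Ifitm2 and Slfn2. That list was taken from these same data and includes the neutrophil-like wells, so its overlap is not independent.

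Small calcium-binding and membrane-binding proteins included Lgals3, the gene of galectin 3, higher by 5.32, S100a6, higher by 4.87, and Anxa2, an annexin, higher by 4.72. Each reached 10 reads in 6 or 7 of 9 neutrophil-like wells and in 1 or 2 of 76 microglia wells. They passed the filter mainly through the neutrophil-like wells, so their differences and the list median are descriptions. Over the 8 of 11 genes of this list that passed, the median was 2.12, and it took the opposite sign with no filter, with a stricter filter and without plate 1. Fxyd5, a regulator of ion transport and adhesion, was at 1431 to 7989 RPM in all 9 neutrophil-like wells, against 0 to 1948 RPM (median 0.213) in microglia wells, a difference of 7.06. Neat1, a nuclear noncoding RNA, was also higher by 7.06, and Wfdc17, a secreted myeloid protein, by 7.03 with 7 of 9 wells at 10 reads.

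Of 12 survival and death genes 8 passed, 1 was higher and 3 lower by 2 or more. Mcl1, which keeps neutrophils alive, was at 247 to 5054 RPM (median 1503) in neutrophil-like wells and at 0 to 1445 RPM (median 2.23) in microglia wells, a difference of 5.404. Bcl2a1b and Bcl2a1d, related survival genes whose near-identical copies may share reads, differed by -2.46 and -2.44. Of 16 glycolysis genes measured, 15 passed and 3 were higher by 2 or more, namely Ldha (3.88), the glucose transporter Slc2a1 (2.89) and Pkm (2.82). None of 20 nuclear respiratory chain genes differed by 2 over all days, with a median of -0.68. At day 2, 4 of the 20 were lower by 2 or more, Cox6b1 (-3.74), Atp5b (-2.38), Atp5g1 (-2.11) and Cox4i1 (-2.06), with a median of -1.17. Of 6 NADPH oxidase genes, which make the oxidant burst, only Rac2 was higher by 2 or more over all days (3.69, and 1.59 at day 2), Ncf4 and Ncf1 were at 1.94 and 1.41, with Ncf4 at 2.34 at day 2, and Cybb, the catalytic subunit, was at 0 in all 9 neutrophil-like wells, against 15 of 76 microglia wells. Of 14 actin genes 6 were higher by 2 or more over all days (median 1.88) and 3 at day 2 (median 0.67), among the 6 Lcp1 (4.01) and Lsp1 (3.14). None of the 13 proliferation genes that passed over all days differed by 2 in either direction. At day 2, 3 of 15 that passed were lower, Tubb5 (-2.59), Stmn1 (-2.51) and Mcm3 (-2.46), with a median of -1.003.

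Genes of microglia made up the other side of the contrast. All 14 microglia markers passed, 12 were lower by 2 or more and 0 higher, with a median difference of -4.29, and of -4.68 without E1 and G5. C1qb, a chain of complement C1q, averaged 6.02 ± 2.42 on the log2 scale in neutrophil-like wells and 12.57 ± 2.11 in microglia wells (SD, n = 9 and 76), a difference of -6.55. It was at 17.01 RPM in C5, 17.1, 2738, 14.7, 37.4, 404 and 27.5 RPM in the wells of day 2, and 7.04 and 22.9 RPM in those of day 4, against 29.3 to 33390 RPM (median 9343) in microglia wells. Every microglia well held 10 reads of it, and 6 of the 9 neutrophil-like wells did too, at low levels apart from E1 and E4. D2 of plate 1 lay at the limit of 10 reads and was not counted. C1qa and C1qc differed by -6.32 and -6.14.

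Csf1r was at 3881 RPM in E1 and at most 13.7 RPM in the other 8 neutrophil-like wells, against a median of 3371 RPM in microglia wells. The difference was -5.66 for Cd81, a tetraspanin, -5.04 for Ly86, a partner of a toll-like receptor relative, -4.98 for Selenop, a secreted selenoprotein, and -4.84 for Sparc, a matrix protein of microglia. P2ry12, the ADP receptor of resting microglia, was at most 16.5 RPM in neutrophil-like wells, against a median of 564 RPM in microglia wells, a difference of -4.16. Trem2, the lipid receptor of microglia, differed by -3.79, whereas Tyrobp, the adaptor that Trem1 and Trem2 share, was at 3139 to 9966 RPM in all 9 neutrophil-like wells, against 6.78 to 44318 RPM (median 2928) in microglia wells. The microglial transcription factor genes, 10 in the list, were all below 0 in difference over all days but none reached -2, which 1 did at day 2, and Irf8 was at -1.90.

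Of 15 lysosomal genes, all of which passed, 10 were lower by 2 or more and the median was -3.22, and -3.75 without E1 and G5. Ctss, a cathepsin that trims antigens, was at 5463 RPM in E1, 2075 RPM in E4 and 553 RPM in G5 and at 11.7 to 55.0 RPM in the other 6 neutrophil-like wells, against 36.2 to 62290 RPM (median 10665) in microglia wells. Lgmn and Ctsz differed by -4.92 and -4.54. Lamp2, a lysosomal membrane protein, was higher by 3.45, with 8 of 9 neutrophil-like wells at 10 reads. Cst3, the gene of the cathepsin inhibitor cystatin C, was at 167 to 7294 RPM (median 1598) in neutrophil-like wells and at 683 to 245556 RPM (median 28833) in microglia wells, a difference of -4.13.

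Of 80 ribosomal protein genes 77 passed, 46 were lower by 2 or more and 0 higher, with a median of -2.21 beside -0.29 over all genes, and of -2.68 without E1 and G5. Together they took 0.105 to 1.36% of reads (median 0.541%) in neutrophil-like wells and 0.758 to 14.7% (median 3.24%) in microglia wells, so the ranges overlap at their ends. Eef1a1, an elongation factor, differed by -5.51 and Rpl3 by -3.51. Many ribosomal protein genes have processed copies in the genome, and the reads of those copies were not separated here. In a well, fewer transcripts of these genes and more of others cannot be told apart, since all values are shares of the reads of that well.

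None of 8 class I antigen presentation genes differed by 2 over all days, and H2-D1 differed by 2.24 at day 2 and -0.21 on the other days. B2m, the shared light chain, was at 432 to 3319 RPM in neutrophil-like wells and up to 34237 RPM (median 5127) in microglia wells, a difference of -1.38. Of 7 class II genes 4 passed, H2-DMa differed by -2.41, and Cd74, the invariant chain, was at most 1.71 RPM in neutrophil-like wells, against 17 of 76 microglia wells at 10 reads.

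**Figure D4:**
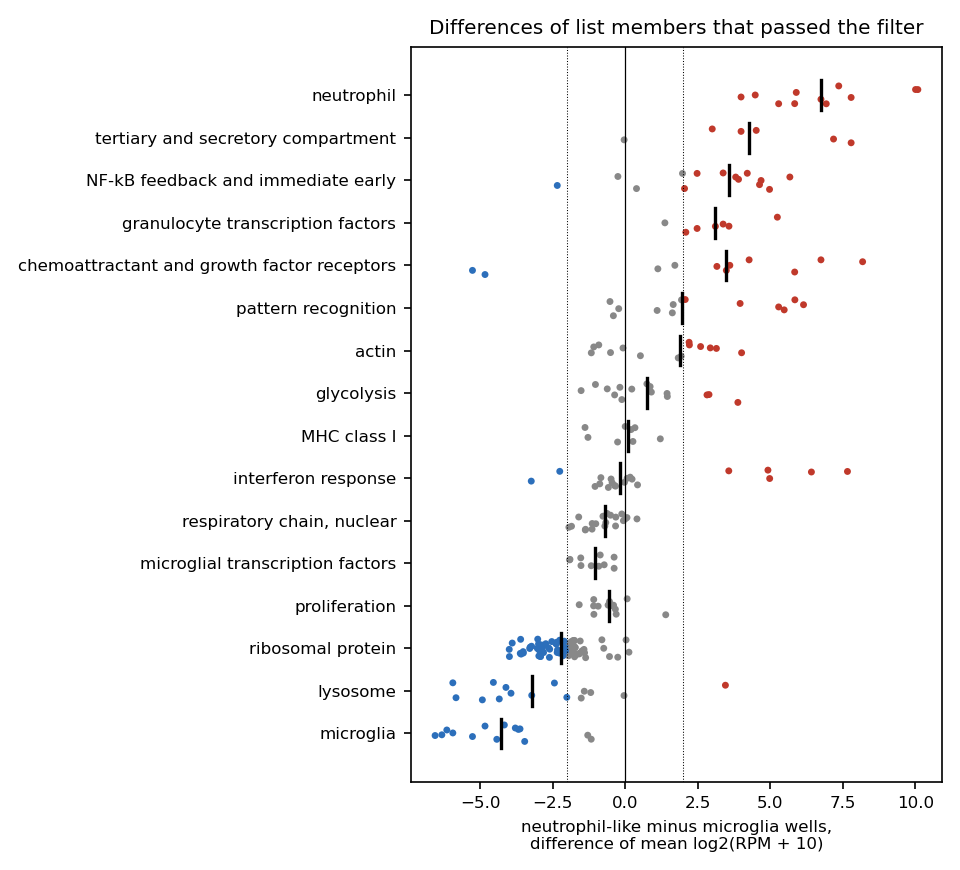
Difference of mean log2(RPM + 10), neutrophil-like minus microglia wells (x axis), for the members of 16 gene lists (rows) that passed the filter; each point is a gene, red at 2 or more, blue at -2 or less, and the black bar is the median of the list. The neutrophil list lies at 3.99 or more, the microglia list below 0, and the ribosomal protein list has its median at -2.21; members that did not pass the filter are not drawn.

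Gpr84, a receptor for medium-chain fatty acids (ENSMUSG00000063234, chromosome 15), was at most 3.12 RPM in neutrophil-like wells and reached 10 reads in 0 of 9, against 21 of 76 microglia wells (27.6%, 17.99 to 39.1), of which 4 were uncrushed, 6 of day 2 and 11 of day 4. Its difference was -1.45, and the exact intervals for the 2 sets overlap. Rhoa was at 0 to 1664 RPM (median 724) in neutrophil-like wells and at 0 to 7024 RPM (median 18.9) in microglia wells, a difference of 1.29. Rock1 reached 10 reads in 2 neutrophil-like wells, E6 at 642 RPM and G2 at 1941 RPM, and Rock2 in none.

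Within day 2, 6 neutrophil-like and 19 microglia wells were compared over 8076 genes. Of these genes 300 were higher by 2 or more (3.71%) and 456 lower (5.65%). With the day taken from the treatment tag the counts were 279 and 457, and the median over all genes was -0.31 in place of -0.43. Without plate 1 there were 576 higher genes, and the counts were 321 and 575 without E1, the well of day 2 that was left out. Every neutrophil-like well lay above every microglia well for 34 genes (0.421%) and below for 1 gene (0.0124%), which was C1qa. C1qa was at 11.95, 114, 6.31, 3.12, 3.26 and 10.1 RPM in the 6 neutrophil-like wells and at 143 to 5289 RPM (median 2129) in the microglia wells of day 2. Large day 2 differences were again those of S100a8 (9.90) and S100a9 (9.71), with Ifitm1 (9.69), Il1b (9.63), Lrg1 (8.41) and Cxcl2 (8.34).

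Direction at day 2 and on the other days was compared for the genes that differed by 2 or more over all days. Of the 283 genes higher over all days, 281 had a positive difference in both sets of days and 171 were at 2 or more in both. Of the 259 lower genes, 257 had a negative difference in both and 184 were at -2 or less in both. The sets of days share no wells, but the choice of genes used them both. Ifitm1 had a difference of 9.69 at day 2 and 3.33 on the other days, Cxcl2 of 8.34 and 2.91, Lgals3 of 6.96 and 2.31 and Lrg1 of 8.41 and 4.56. Only 3 neutrophil-like wells stand on the other days, and the difference between the sets of days was not tested. By the treatment tag G2 and G5 would be from day 2, which would leave C5 alone on the other days. Single genes below a difference of 2 over all days could point opposite ways, as Arhgdib did with -2.92 at day 2 and 2.54 on the other days.

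**Figure D5:**
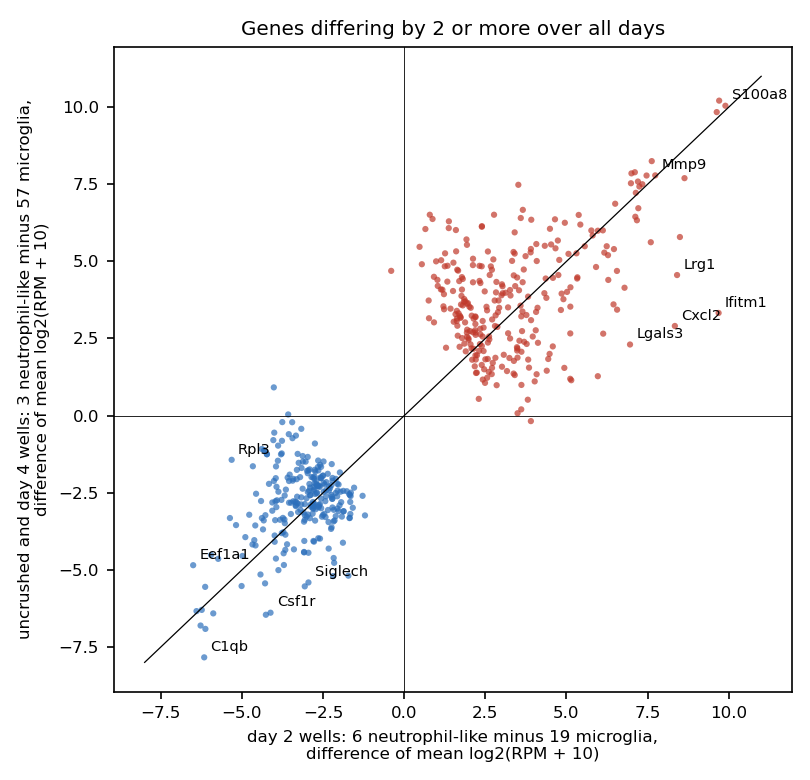
Difference of mean log2(RPM + 10), neutrophil-like minus microglia wells, at day 2 (x axis) and over uncrushed and day 4 wells (y axis), for genes higher (red) or lower (blue) by 2 or more over all days; the line marks equality. Most points lie in the upper right or lower left of the plot, and Ifitm1, Cxcl2 and Lgals3 lie well below the line. Days follow the titles and not the treatment tag.

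The 9 wells differed among themselves. C5, the only well from uncrushed retina, had 43557 RPM of S100a8, 2642 RPM of Mmp8, 3632 RPM of Lcn2 and 1797 RPM of Padi4, the enzyme behind neutrophil extracellular traps, and lacked Ifitm1, Cxcl2, Wfdc17 and Lrg1 at 10 reads. In E6 of day 2, Lilr4b was at 29480 RPM and Cxcl2 at 16555 RPM, with Hp at 4.21 RPM and Retnlg at 0. D3 of day 2 had 153477 RPM of Ifitm1 and 7836 RPM of Ccl4. E4 of day 2 had the lowest Il1b (2241 RPM) and held 1.63 RPM of Mxd1. G2 of day 4 had 4796 RPM of Ly6g and 3987 RPM of Il1rn.

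Promoter letters were compared over the genes that differed. The NF-kB letters stood in the 250-base window of 9 of 217 higher genes with a RefSeq window (4.15%) and of 1 of 136 lower genes (0.735%), beside 67 of the 5330 genes that passed the filter (1.26%). The 9 were Arpc5, Cd300ld, Csf1, Csf3r, Cxcl2, Cxcl3, Neurl3, Nfkbia and Vmp1. TTNNGNAA stood in 34.1% of higher and 29.4% of lower genes beside 30.6% of those that passed, TGNNGNAA in 39.6% and 39.7% beside 35.7%, and GAGGAA in 29.95% and 31.6% beside 23.3%. TATAAA stood in 12.9% of higher genes and 9.56% of lower genes, beside 6.92%. These shares are descriptions of letters, no test was made of them, and the genes were chosen by their differences.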

How the data were processed

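Single retinal cells sorted by FACS were lysed, and the cDNA was amplified and tagmented with a Nextera XT kit, according to the labels' protocols. The submitters' processing notes list Trim Galore 0.4.4, Trimmomatic 0.36, cutadapt 1.16, STAR 2.7.2b, featureCounts 1.6.1 and the mouse build GRCm38.p6 (mm10). The authors deposited FPKM values for 55364 genes in 144 wells.

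FPKM times gene length, over 1000 bases, gave RPM, and the most frequent positive RPM of a well was taken as the worth of 1 read. Of the values under 100 reads, 36.2% were whole within 0.01, so no count model was used. Differences are of mean log2(RPM + 10) over wells, for genes with 10 or more reads in at least 5% of the wells compared, and a gene was counted at a difference of 2. Intervals of shares are Clopper-Pearson at 95%.

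The wells, gene lists, markers and rules were chosen with earlier results of these data known. The genes named by rule were the 14 highest and 14 lowest differences, and 6 and 6 more at day 2. They had 10 reads in at least 50% of the wells of the set where they were higher, and the same sign at day 2 and on the other days. Predicted, clone, pseudogene, small RNA and ribosomal protein symbols were left out of these unless a list held them. Up to 4 members of each list with the largest absolute differences, all members of lists of up to 6, and Gpr84, Tnf, Il1a, Rhoa, Rock1 and Rock2 were added. Other genes are named as examples chosen after their values were seen. Mitochondrial genome genes, Aldoa, BC100530 and BC117090 were not analysed here. No test was made, because no animal is named and the wells were chosen by measured values. Of 10296 pairs of wells, 0 held identical values. The calculation of differences was also run on simulated counts, with changes set only among the more abundant genes. That run was a check of the calculation and not of the results given here. Promoters came from RefSeq tables of GRCm38.p6. The work used Python 3.11.15 with numpy 2.4.6, pandas 2.3.3, matplotlib 3.10.9 and scipy 1.17.1. Some genes that the rule names are not reported here.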

Additional observations from a re-analysis of the deposited data

Results flagged for a closer look

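Of 154 genes looked at over the 9 neutrophil-like wells, 43 had a well far from the other 8 by the cutoff of Dixon's gap test. The 5% rate of that cutoff is for normally distributed values and does not apply here. A gene at 0 in all wells but 1 is always picked, as Rock2 was at 0.916 RPM. The 43 are therefore a description and not an excess over chance. In each case the gap to the nearest well took up a large part of the range of the 9.

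The high well was most often E1 of day 2, which also held microglia and rod markers. There the levels were 114 RPM of C1qa, 3338 RPM of C1qc, 1620 RPM of Cd81, 1420 RPM of Eef1a1, 3881 RPM of Csf1r, 1665 RPM of Ly86 and 98.6 RPM of Cx3cr1. E1 also stood apart at 331 RPM of Trem2, 71.0 RPM of P2ry6, 69.0 RPM of Itgb5, 503 RPM of Siglecf, 30.6 RPM of Folr2 and 0.493 RPM of Opn1sw. The remaining genes of E1 were Rpl23 at 58.2 RPM, Uqcrc1 at 1014 RPM, Stmn1 at 147 RPM and Arhgdia at 224 RPM. In G5 of day 4, the other well with rod markers, Tapbp was at 98.2 RPM and Uqcrfs1 at 1.35 RPM.

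Other wells stood high for a few genes each. E4 of day 2 had 53.8 RPM of Ly6c2 and 1603 RPM of Cst7. D2 of plate 1 had 2568 RPM of Itgal, 78.7 RPM of Bcl2a1b and 36.997 RPM of Bcl2a1d. G2 of day 4 had 2965 RPM of Cstb, 1750 RPM of P2ry13 and 3.52 RPM of Maf. At the level of 1 or a few reads were Gpr84 and Pf4 at 3.12 RPM in D3, Rock2, Cd79b and H2-Ab1 at 0.916 RPM in D2 of plate 3, Mrc1 at 1.05 RPM in E6 and Mef2a at 0.740 RPM in C5.

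Low wells were fewer. E4 had 2241 RPM of Il1b, 1.63 RPM of Mxd1 and 0.944 RPM of Actg1. D3 had 49.9 RPM of Neat1 and 9.35 RPM of Ldha. G2 had 12.3 RPM of H2-D1 and 2.35 RPM of Dusp1. E6 had 4.21 RPM of Hp, and D2 of plate 1 had 0 RPM of Junb, a gene at 892 RPM or more in the other 8 neutrophil-like wells.

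Among the 56 wells with too few reads for the comparison, 9 held 10 or more reads of S100a8 and of S100a9 with both at 1000 RPM or more. They came from uncrushed retina (2 wells), day 2 (5 wells) and day 4 (2 wells). Like the rest of the 56, they also carried microglia markers, at a summed level of 6664 RPM or more.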

How the results depend on the processing

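Of 160 named genes, 95 differed by 2 or more, and 91 of these kept their sign under the 29 alternatives run for them, 63 also staying at 2 or more. Of the other 4, Gnat1 turned sign and Prph2, Bcl2l11 and Steap4 were at exactly 0 by the difference of medians. Over all days 283 genes were higher in neutrophil-like wells. That count was 565 with a pseudocount of 1 RPM, 94 with 100 RPM, 126 with a filter of 20% of wells, 735 by the ratio of mean RPM and 439 without plate 1, which holds 6 of the 9 neutrophil-like wells. The 259 lower genes became 898 and 42 with those pseudocounts and 2196 by the ratio. At day 2 the 300 higher genes became 618, 101, 197, 863 and 576 under the same 5 settings in the same order, and the 456 lower genes 1436 and 65 with the pseudocounts and 2389 by the ratio. Leaving out each neutrophil-like well in turn gave 270 to 311 higher and 245 to 324 lower genes over all days, and 300 to 352 and 428 to 575 at day 2. Of values at 2 or more in size, signs turned for Gnat1 (-0.14 without plate 1, -0.073 without E1 and G5), for the median of rod markers (-0.073 without E1 and G5), and for the median of S100, annexin and galectin genes (-0.15 with no filter, -1.11 with the 20% filter, -0.69 without plate 1). Gnat1 was high in E1 and G5, which are both on plate 1; the cause of the other reversals was not tested. Of 37 list medians over all days, 11 that lay between -2 and 2 also took the opposite sign under at least 1 alternative. The ITAM and Trem median did so under 16, adhesion under 15, secondary granule and class I under 11 each, cone under 6, cytokines under 4, interferon and glycolysis under 2 each, and iron, stefins and the genes of the series title under 1 each. Without E1 and G5 the median was -0.045 for glycolysis, -0.14 for class I and 0.25 for ITAM and Trem. Leaving out E1 and G5 was chosen after seeing the data. A minimum of 20000 reads kept the same wells. The alternative scaling left out S100a8 and S100a9, and no scaling without mitochondrial genes was run. The separation of plate from day is limited, since both neutrophil-like wells of day 4 and the 1 of uncrushed retina are on plate 1. With 9 wells, a gene seen in 0 of them can be in up to 33.6%. No paired analysis was possible because the labels give no replicate numbers and no test was made. Each plate held both sets, 6, 2 and 1 neutrophil-like wells beside 28, 26 and 22 microglia wells on plates 1 to 3. Differences taken within plates and averaged over them, chosen after seeing the data, gave 374 higher and 315 lower genes over all days and 395 and 483 at day 2.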

Other observations

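Lists that the comparison did not describe gave the following values in neutrophil-like against microglia wells. Of 12 complement genes 8 passed the filter, 1 was higher by 2 or more (C5ar1) and 4 were lower (among them the 3 chains of C1q), with a median of -2.37. Of 9 purinergic genes 7 passed and 2 were lower, P2ry12 at -4.16 and P2ry13 at -2.04, while Entpd1, an enzyme that breaks down extracellular ATP, differed by 1.75. Of 10 genes of ITAM adaptors and Trem receptors 9 passed, with Trem1 higher and Trem2 lower, and Trem3 reached 10 reads in 3 neutrophil-like wells and 0 microglia wells. Of 8 stefin genes measured 3 passed and only Cst3 was lower by 2 over all days, Cstb being at -2.71 at day 2 and 1.25 on the other days, and Stfa2l1, a neutrophil stefin, reached 10 reads in 3 neutrophil-like wells and 0 microglia wells. None of the 5 iron genes that passed over all days differed by 2, and 1 of 5 that passed at day 2 did, Steap4, a metalloreductase, at 3.31 there and -0.01 on the other days. It reached 10 reads in 4 neutrophil-like wells and 0 microglia wells. Of the 10 genes of the series title and of RhoA signalling, all of which passed, 1 was higher over all days (Msn, which links actin to the membrane, 2.60, and 0.98 at day 2) and 2 lower (Il1a, and Arhgdia, an inhibitor of small GTPases, at -2.71).

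Markers of further cell types had low medians in the neutrophil-like wells, the summed level of cone markers being highest at a median of 56.7 RPM. Their summed levels were at most 53.8 RPM for monocytes, 30.6 RPM for border macrophages, 1.17 RPM for dendritic cells, 0.916 RPM for B cells, 262 RPM for cones, 904 RPM for Muller glia and 503 RPM for mast cells, basophils and eosinophils. The values of 904 and 503 RPM were both in E1 of day 2, which was not low for these markers. In microglia wells the highest sums were 60966 RPM for monocytes, 6231 RPM for border macrophages, 5.38 RPM for dendritic cells, 413 RPM for B cells, 1673 RPM for cones, 5972 RPM for Muller glia and 128 RPM for mast cells, basophils and eosinophils. The monocyte maximum was in F1 of plate 1 at day 4, a microglia well by rule only. Over all days no gene of these lists that passed the filter differed by 2, and of the monocyte, border macrophage, dendritic cell, T cell, NK cell, erythroid, endothelium and mast cell lists 0 genes passed. Pde6h, the 1 cone marker that passed, reached 10 reads in 6 of 9 neutrophil-like wells and 41 of 76 microglia wells, with a difference of -2.34 at day 2 and 1.56 on the other days. Class II antigen presentation was at 0 or a few reads in most neutrophil-like wells, and H2-Aa was at 80.6 RPM in D2 of plate 3.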
